A study of Mus musculus with 7 samples.

Results

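The 36 genes described here encode the chains of the integrins and laminins, the receptors and the basement membrane proteins through which cells hold on to their surroundings. They were taken from a list of 26 integrin and 10 laminin chain genes among the 21911 protein-coding genes of GENCODE M21 on the mouse assembly GRCm38. The rule uses no measured value, although these genes and the gene lists set beside them were chosen with earlier results of these data known. Each gene was looked up in 3 lists of H3K27ac peaks. H3K27ac, acetylation of lysine 27 of histone H3, marks active promoters and enhancers. Each list came from a clonal cell line grown out in soft agar from an independent skin tumour, a trichoblastic carcinoma, of a Cdkn2ab-/- mouse of an FVB/129P2 backcross. All 3 clones therefore lack p15Ink4b, p16Ink4a and p19Arf. There is no untreated, wild-type or normal skin sample, so what the deletion does cannot be seen. Every line is 1 clone with 1 peak list, so a difference between lists cannot be assigned to tumour, clone or library.

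For each gene 3 things were recorded. A promoter peak is a peak that overlaps the 1 kb on either side of any annotated start of the gene. A body peak overlaps the gene but none of those windows. The third measure is the number of bases under peaks in the gene and the 50 kb on either side of it. Strength is given as fold enrichment over the control at the summit of a peak, and as the number of ChIP reads there, solved from the deposited fold and p-value. The lists of clones 1, 2 and 3 held 29182, 49587 and 29277 peaks, which covered 26.9, 39.8 and 26.3 Mb. The weakest peak had 13, 12 and 25 reads at its summit, so a mark needed more reads to be listed in clone 3. The median fold of peaks at protein-coding starts was 14.85, 24.02 and 7.13, and folds are therefore read within a clone. A gene without a peak is a gene whose mark did not reach the list, not a gene shown to lack it. The lines were profiled in bulk, so fewer marked cells and less mark per cell cannot be told apart.

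Integrins are pairs of an α and a β chain that span the membrane and bind matrix outside and the cytoskeleton inside. Most pairs reach actin through talin and kindlin. The pair of the α6 and β4 chains differs in that it reaches keratin filaments through plectin in the hemidesmosome, the junction that rivets basal keratinocytes to the basement membrane. Laminins are trimers of an α, a β and a γ chain, and laminin-332, with the chains encoded by Lama3 and Lamb3 described here, is the ligand of that junction. The chains were grouped by where they are best known into 4 epithelial chains (Itga6, Itgb4, Lama3 and Lamb3), 7 mesenchymal chains, 9 leukocyte and platelet chains and 16 others of wide or mixed use.

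A promoter peak was present at 16, 20 and 14 of the 36 genes in clones 1, 2 and 3. Over all protein-coding genes the shares were 49.8%, 56.9% and 48.1%. Common to all 3 clones were the promoter marks of 14 members (38.9%), against 46.5% of all genes, and 16 members were unmarked throughout, against 42.6%. The 14 were Itga1, Itga2b, Itga5, Itga6, Itgav, Itgb1, Itgb2, Itgb5, Itgb7, Itgb8, Lama5, Lamb1, Lamb2 and Lamc1. Among the α chains 5 of 18 were marked in all 3 clones, among the β chains 5 of 8, and among the laminins 4 of 10. The remaining 6 members differed between clones. Lama3, Itga7, Itga8 and Itgb3 had a promoter peak in clone 2 only, a pattern seen at 6.15% of all genes, and Itga3 and Lama4 had one in clones 1 and 2 only, seen at 2.98%. Clone 2 is also the clone with the longest list. The windows of the 16 unmarked members still held 0 to 16373, 0 to 23576 and 0 to 11182 bases under peaks in the 3 clones, with medians of 1949, 2789 and 1396. Those of the 14 marked members, which include the promoter peak itself, had medians of 6630, 10274.5 and 5311.5.

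**Figure D1:**
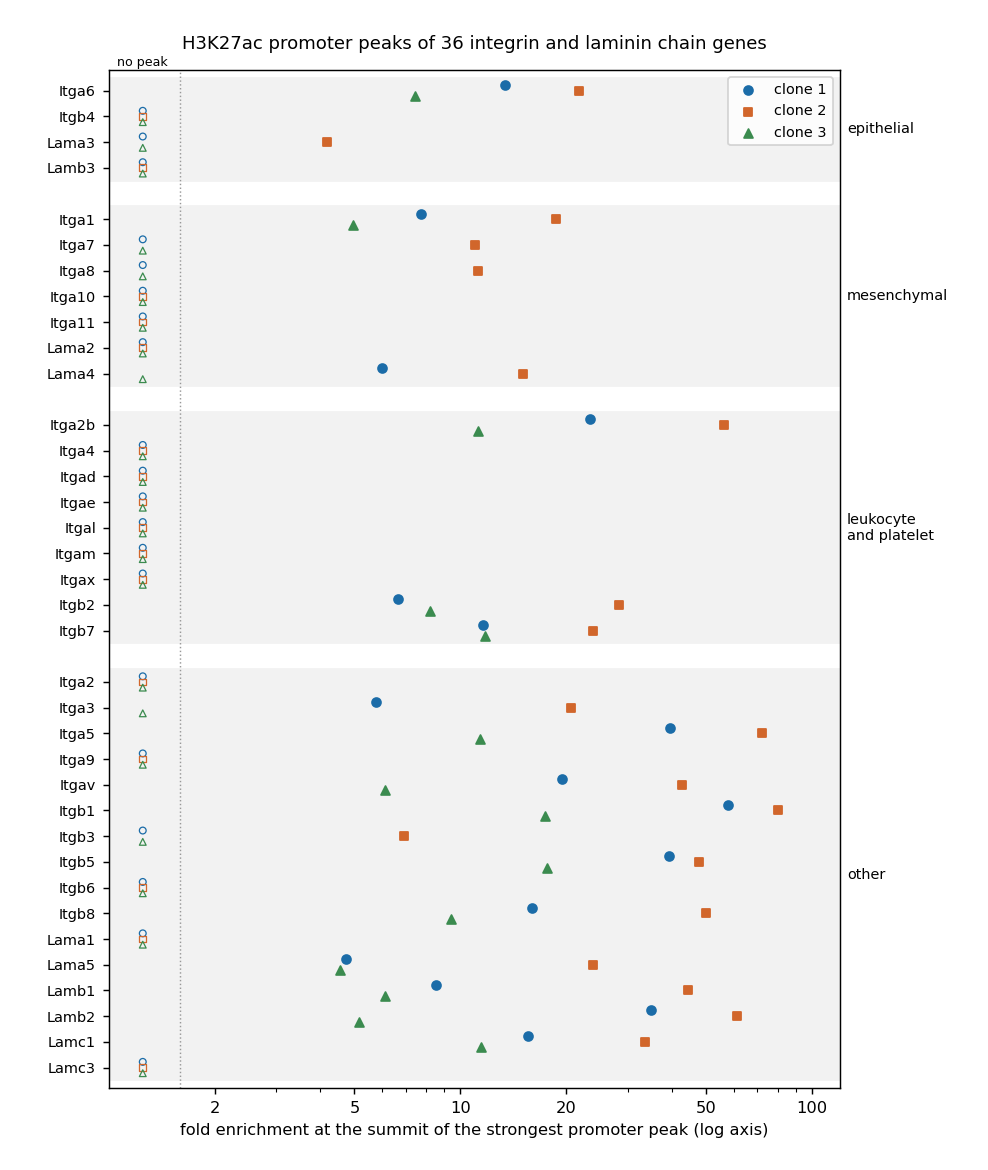
Fold enrichment at the summit of the strongest promoter peak (x, log axis) for each of the 36 genes (y, in 4 groups), with a symbol for each clone. Hollow symbols at the left are genes with no promoter peak in that clone. Itgb1 lies farthest to the right in clones 1 and 2 (57.8-fold and 80.0-fold), whereas Itgb4 and Lamb3 have no peak in any clone.

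The epithelial chains were not marked as a set. Of the 4, only Itga6 had a promoter peak in all 3 clones, a share of 25% against 46.5% of all genes. Lama3 had one in clone 2 alone, and Itgb4 and Lamb3 had none. Itga6 encodes the laminin-binding α6 chain and lies on chromosome 2 (chr2:71745616-71858416, plus strand). Its promoter peak reached 13.4-fold, 21.7-fold and 7.45-fold in clones 1, 2 and 3, with 65, 150 and 58 reads. Among peaks of every kind in each list it was at the 71.4th, 79.4th and 71.7th percentile of fold. The median fold of peaks at protein-coding starts was 14.85, 24.02 and 7.13. Against that, the Itga6 peak was lower in clones 1 and 2 and slightly higher in clone 3. The peak did not lie at the outermost annotated start of Itga6 but at a start farther inside the gene, with summits 41693, 41500 and 41523 bp downstream of the outermost start in the 3 clones, and no clone had a peak within 1 kb of the outermost start. Body peaks of Itga6 were listed in clones 2 and 3 and not in clone 1.

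Itgb4 encodes the β4 chain, the partner of α6 in the hemidesmosome, and lies on chromosome 11 (chr11:115974709-116008412, plus strand). It has 8 annotated starts, and none had a peak within 1 kb in any clone. Around the gene, however, 16373, 23576 and 11182 bases lay under peaks in clones 1, 2 and 3, more than around any other epithelial chain. Of these, 11544, 16614 and 6845 bases lay away from every protein-coding start. Peaks of all 3 clones coincided in 4 such regions upstream, with centres at -4.4, -9.7, -18.1 and -25.1 kb from the outermost start of Itgb4. The strongest, at -18.1 kb and in an intron of Sap30bp, had 113, 193 and 95 reads. The nearest, at -4.4 kb, was intergenic and had 32, 88 and 66 reads. The other 2 had their highest summits in an exon of Sap30bp and in an exon of the transcript Sap30bpos. Which gene any of these regions acts on was not measured. Inside Itgb4 itself clones 1 and 3 had no body peak and clone 2 had 2.

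Lama3, which encodes the α3 laminin chain, had a weak promoter peak of 4.19-fold and 27 reads in clone 2, at the 8.9th percentile of that list. Clones 1 and 3 had no promoter peak there. Body peaks of Lama3 were listed in clones 1 and 2, and the bases under peaks around the gene were 2719, 3825 and 3673. Lamb3, which encodes the β3 chain, had neither a promoter peak nor a body peak in any clone. The 3380, 3307 and 646 bases counted around Lamb3 lay in the flank upstream of it, so the gene itself was without a listed peak over its 136.2 kb.

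**Figure D2:**
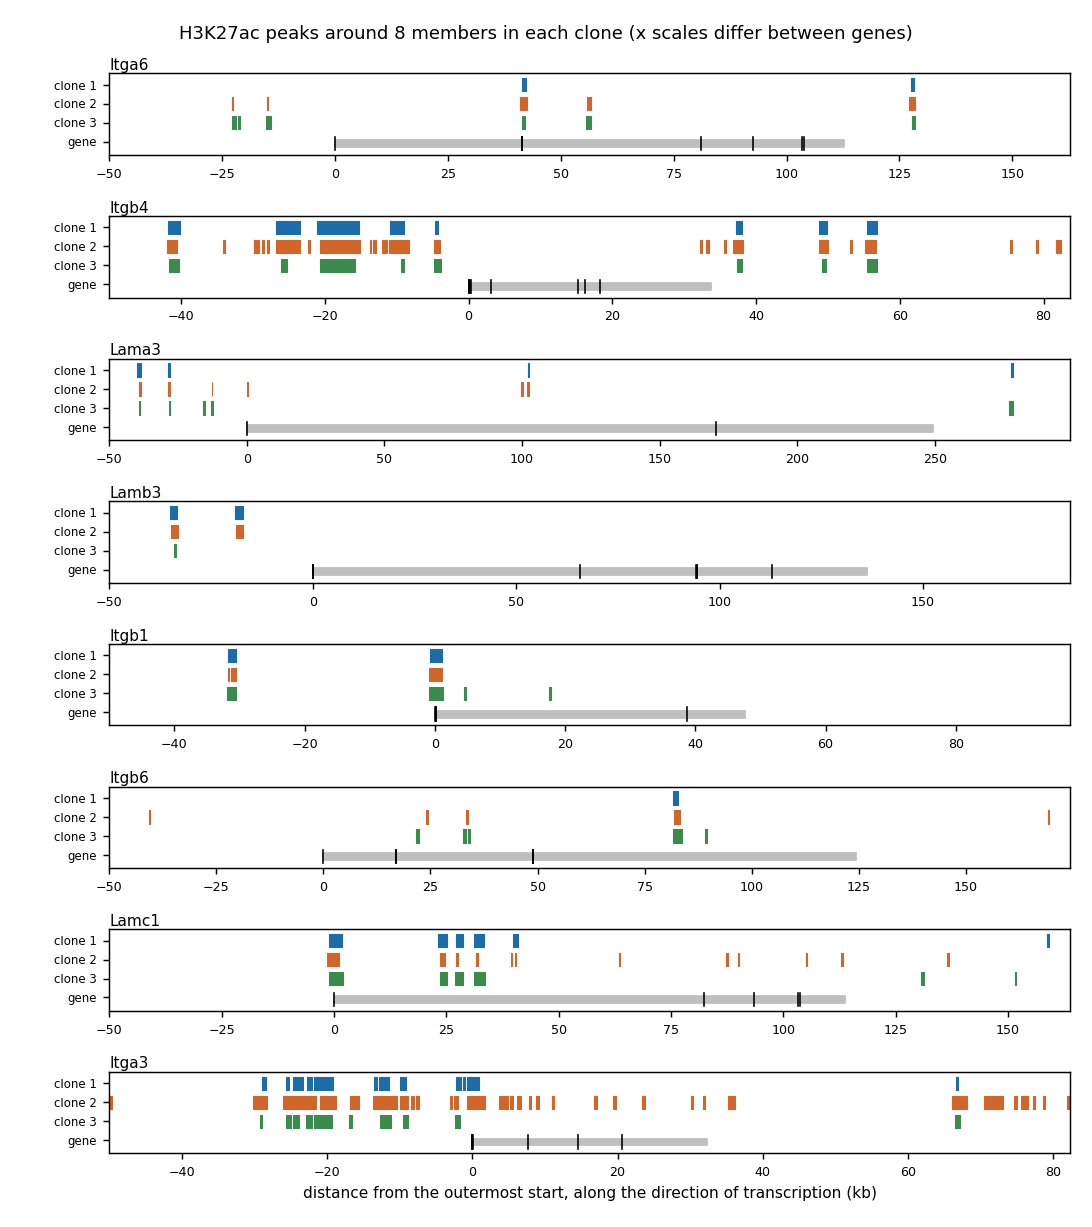
H3K27ac peaks of each clone (coloured boxes, drawn with a thin outline so that narrow peaks stay visible) around 8 genes, by distance in kb from the outermost start along the direction of transcription. Grey bars are the genes and black ticks their annotated starts, and x scales differ between panels. The Itga6 peak shared by the 3 clones sits at 41500 to 41693 bp inside the gene, the peaks near Itgb4 sit upstream and downstream of it, and Lamb3 has none within the gene.

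Of 4 partners of these chains in the hemidesmosome 3 (75%) were marked throughout, against 46.5% of all genes. Plec (plectin), Dst (the BP230 linker) and Cd151 (a tetraspanin that binds laminin-binding integrins) had promoter peaks in all 3 clones, and Col17a1 (BP180) had a weak one of 4.78-fold in clone 2 only. Dst reached 25.6-fold, 66.2-fold and 14.4-fold. Plec and Dst also have forms outside epithelia, so their marks are not specific to hemidesmosomes. Markers of keratinocytes were mostly unmarked at their promoters. Of 10, only Perp had a promoter peak in all 3 clones, Krt14 had one in clone 1, Krt15 and Sfn had one in clone 2, and Krt5, Krt17, Trp63, Cdh1, Epcam and Dsp had none, although Trp63 and Cdh1 carried body peaks in every clone. Of 10 mesenchymal markers 6 (Vim, Pdgfrb, Zeb1, Twist1, Cdh2 and S100a4) were marked in every clone, a share to be read against the 46.5% of all genes. Col1a1, Col1a2 and Pdgfra had a promoter peak in clones 1 and 2 only, and Col3a1 in clone 3 only. Vim reached 41.6-fold, 55.3-fold and 14.4-fold. Most keratinocyte promoters were thus unmarked in lines that came from a skin carcinoma, and the part of this in the marks of the epithelial chains was not tested.

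Among the 7 mesenchymal chains, those of collagen-binding and fibroblast or muscle integrins and laminins, only Itga1 had a promoter peak in all 3 clones. That share was 14.3%, against 46.5% of all genes. Itga1, a collagen-binding α chain, reached 7.72-fold, 18.7-fold and 4.95-fold with 29, 86 and 42 reads. That peak also lay within 1 kb of a start of the neighbouring gene model Gm49395, so it cannot be assigned to Itga1 alone. Lama4, the α4 laminin chain of vessels and fat, had promoter peaks of 6.01-fold in clone 1 and 15.1-fold in clone 2 and none in clone 3. Itga7, an α chain of muscle, had 11.0-fold and Itga8 11.2-fold in clone 2, with 46 and 55 reads, and neither had a promoter peak in the other clones. Itga10, Itga11 and Lama2 had none. Lama2 spans 639.7 kb, the longest gene of the list, and had 0, 0 and 1368 bases under peaks in its window.

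The 9 leukocyte and platelet chains were either marked in every clone or in none, as were 89.1% of all protein-coding genes. Itga2b, Itgb2 and Itgb7 (33.3%) had promoter peaks in all 3 clones, against 46.5% of all genes. Itga4, Itgad, Itgae, Itgal, Itgam and Itgax had none in any clone, as did 42.6% of all genes. The split fell between α and β chains except for Itga2b: both β chains of leukocytes, Itgb2 (β2) and Itgb7 (β7), were marked, and all 6 α chains that pair with them were not. In all 3 marked genes the summit of the strongest peak lay inside the gene. The summit at Itgb2 lay 1340, 1328 and 1383 bp inside the gene, with 6.66-fold, 28.3-fold and 8.18-fold enrichment, and in clones 1 and 3 the peak covered no start. At Itgb7 the summits lay 483, 1005 and 1031 bp inside the gene, at 11.6-fold, 23.9-fold and 11.8-fold. At Itga2b, the platelet αIIb chain, the strongest peaks lay 2543, 2600 and 3523 bp inside the outermost start, at internal starts, with 23.4-fold, 56.2-fold and 11.2-fold, and the RefSeq start of the gene had no peak within 1 kb. No leukocyte marker of 10 was marked at its promoter throughout, against 46.5% of all genes. Of the 10, Ptprc, Cd3e, Cd79a, Laptm5, Tyrobp and Ikzf1 had no promoter peak in any clone. Spi1, Coro1a and Csf1r had one in clone 2 only, and Cd68 had one in clones 1 and 2. Of 5 platelet markers none had a promoter peak in any clone, where 42.6% of all genes had none. Itga4, which encodes the α4 chain of lymphocyte homing, had 0 bases under peaks in its whole window in every clone, the only member for which this held.

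Most of the strong promoter marks were at the 16 chains of wide or mixed use. Of these chains 9 (56.2%) were marked in all 3 clones, against 46.5% of all genes. Itgb1 encodes β1, the chain shared by most matrix-binding integrins, and lies on chromosome 8. Its promoter peak had 57.8-fold, 80.0-fold and 17.4-fold enrichment with 306, 437 and 200 reads in clones 1, 2 and 3. By fold it ranked at percentile 99.7, 98.5 and 98.2 of all peaks. Itga5, the fibronectin-binding α chain, on the gained chromosome 15, had 39.5-fold, 72.0-fold and 11.4-fold. Itgb5, a β chain of vitronectin receptors, had 39.3-fold, 47.6-fold and 17.7-fold. Itgb1, Itga5 and Itgb5 had the highest promoter folds of the list in clone 1, while Itgb5 and Itgb1 led in clone 3 and Itgb1 and Itga5 in clone 2.

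The αv chain and its β partners were marked in part. Itgav had 19.4-fold, 42.8-fold and 6.11-fold enrichment. Itgb8, whose product with αv activates latent TGF-β, had 16.0-fold, 50.0-fold and 9.39-fold. Itgb3, the β chain of platelets, endothelium and osteoclasts, had a peak only in clone 2, of 6.92-fold with 30 reads. Itgb6, the epithelial partner of αv, had no promoter peak in any clone, yet it carried body peaks in all 3. Clones 1, 2 and 3 listed 2, 4 and 5 of them, and a region 82.7 kb inside the gene was shared with 29, 58 and 139 reads. At this region clone 3 had the most reads, whereas clone 2 had the most reads at each of the 14 promoters marked in all 3 clones. This was not particular to Itgb6. Clone 3 also had the most reads at some other shared regions away from starts, such as those in introns of Lamb1 and Lama4, and clone 2 at others. Reads are not scaled to library size.

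Itga3 encodes α3, a laminin-binding chain of epithelia. Its promoter had a peak of 5.76-fold and 52 reads in clone 1, 20.6-fold and 142 reads in clone 2, and none in clone 3. All 3 clones nevertheless shared 5 regions upstream of Itga3, with centres from -2.0 to -29.2 kb of the start, all intergenic. The region at -22.4 kb had 61, 150 and 84 reads. Itga3 also had the largest number of bases under peaks of any member in clone 2, at 30951, against 10732 and 8663 in clones 1 and 3. Itga2, a collagen-binding chain, and Itga9 had no promoter peak in any clone.

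Of the laminin chains, those of the widely expressed laminins carried the mark. Lamc1, which encodes γ1, had 15.6-fold, 33.5-fold and 11.5-fold at its promoter, and 3 further regions within the gene, 24.3 to 32.4 kb from the start, were listed in all 3 clones. Lamb2, the β2 chain, had 34.8-fold, 61.4-fold and 5.15-fold. Lamb1, the β1 chain, had 8.55-fold, 44.5-fold and 6.11-fold. Lama5, the α5 chain, had 4.74-fold, 23.9-fold and 4.55-fold, with 20, 113 and 41 reads, and in clones 1 and 3 this peak was among the weaker ones of the list, at the 15.2th and 33.5th percentile. Lama1, the α chain of early embryonic laminin, and Lamc3 had no promoter peak in any clone.

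Read as receptors and trimers, few combinations had all chains marked. These counts restate the calls of single genes, which recur across combinations, and have no share over all genes beside them. Of 24 known integrin pairs that can be built from these chains, 6 had a promoter peak at both genes in all 3 clones, and 18 at 1 of them. The 6 were Itgb1 with Itga1, Itga5, Itga6 or Itgav, and Itgav with Itgb5 or Itgb8. The hemidesmosome pair was short of Itgb4. Of 8 laminins that join Lama1, Lama2, Lama4 or Lama5 to Lamb1 or Lamb2 and Lamc1, laminin-511 and laminin-521 had all 3 chains marked, and the other 6 lacked the α chain. Since Lamb1, Lamb2 and Lamc1 were all marked, no other chain could be lacking. In these 6 it was Lama1, Lama2 or Lama4 that did not carry a promoter peak in all 3 clones. Laminins with Lama3 were not counted, and neither Lama3 nor Lamb3 was marked in all 3 clones. A promoter mark is not a measure of protein, and pairing was not measured.

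Integrins need cytoplasmic proteins to change shape and to grip the cytoskeleton. Of 14 such activators and linkers 11 (78.6%) had a promoter peak in all 3 clones, against 46.5% of all genes. Among them Tln1 (talin) had 21.3-fold, 64.4-fold and 5.50-fold, and Parva (parvin, which joins integrins to actin) had 45.1-fold, 107.2-fold and 14.5-fold. The kindlins differed: Fermt2 was marked in all 3 clones, Fermt3, the kindlin of blood cells, in clone 2 only, and Fermt1, the kindlin of epithelia, in none. Of 8 laminin partners and other laminin receptors 6 (75%) were marked in all 3 clones, among them Dag1 (dystroglycan) and Agrn (agrin). Nid2 was marked in clone 2 only and Bcam in none.

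**Figure D3:**
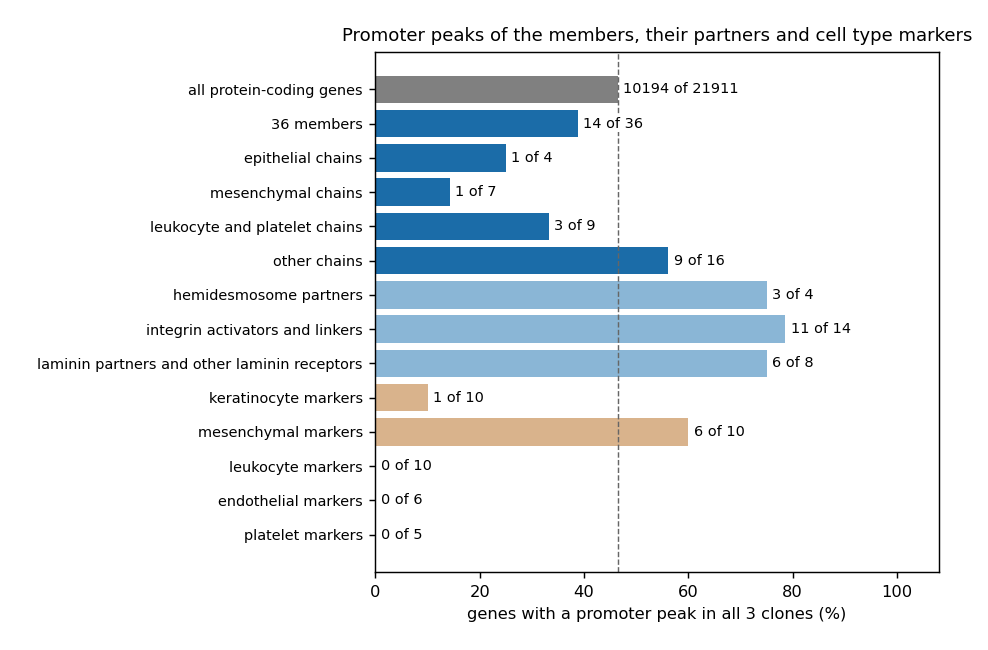
Share of genes with a promoter peak in all 3 clones (x, percent, from 0), for all protein-coding genes, the 36 members and their 4 groups, 3 lists of partner genes and 5 lists of cell type markers, with counts beside the bars. The dashed line is the share over all protein-coding genes, 46.5%, which the activators and linkers exceed with 11 of 14 and the epithelial chains do not reach with 1 of 4.

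By bases under all listed peaks within 50 kb, the epithelial chains differed from the mesenchymal chains by less than the spread between clones. The same held against the leukocyte and platelet chains, but neither held at every setting tried. The median over the 36 members was 3194.5, 3993.0 and 3926.5 bases under peaks within 50 kb in clones 1, 2 and 3 (mean 3705 ± 443 bases, SD, n = 3 clones), against 2145, 3167 and 2160 over all protein-coding genes (2491 ± 586). The members' median length was 66.9 kb and that of all protein-coding genes 17.4 kb, so their windows are longer. As a percent of the window the medians were 1.63%, 1.96% and 2.19% against 1.53%, 2.25% and 1.57%. In bases the members were higher in every clone, and as a percent they were lower in clone 2. The epithelial chains had medians of 3049.5, 3993.0 and 4315.5 bases and the mesenchymal chains 3459, 2708 and 3102. The difference, epithelial minus mesenchymal, was -409.5, 1285 and 1213.5 bases in clones 1, 2 and 3, with a mean of 696 ± 958 (SD, n = 3). It was positive in 2 of 3 clones and smaller than its spread (exact sign-flip permutation test over the clones, two-sided, p = 0.5). With a flank of 100 kb it was 3404.83 ± 565.39 bases, and without peaks within 1 kb of a start of another protein-coding gene 1392.5 ± 705.63 (SD, n = 3), positive in all 3 clones each time and larger than its SD (the same exact permutation test, p = 0.25 for each). With the gene body alone it was negative in all 3 clones, at -622.17 ± 197.77 bases (p = 0.25 by the same exact test).

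The leukocyte and platelet chains had medians of 4225, 7491 and 3946 bases, above the epithelial chains in clones 1 and 2 and below them in clone 3. The difference, epithelial minus leukocyte and platelet, was -1175.5, -3498 and 369.5 bases, with a mean of -1435 ± 1947 (SD, n = 3; exact sign-flip permutation test, two-sided, p = 0.5). With 3 clones this test cannot give a p below 0.25. As a percent of the window the difference was -1.89 ± 1.43 (SD, n = 3), below 0 in all 3 clones and larger than its SD (the same exact permutation test, p = 0.25). Away from all protein-coding starts the leukocyte and platelet chains had medians of 328, 2007 and 0 bases, and the epithelial chains 1771.5, 1614 and 3003. When peaks within 1 kb of a start of another protein-coding gene were left out, the direction turned and the epithelial median was higher by 1744.83 bases on average, in all 3 clones (the same exact permutation test, p = 0.25). Within a group the chains differed widely: in clone 1 the windows of the 4 epithelial chains held 1648 to 16373 bases and those of the 9 leukocyte and platelet chains 0 to 19582.

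**Figure D4:**
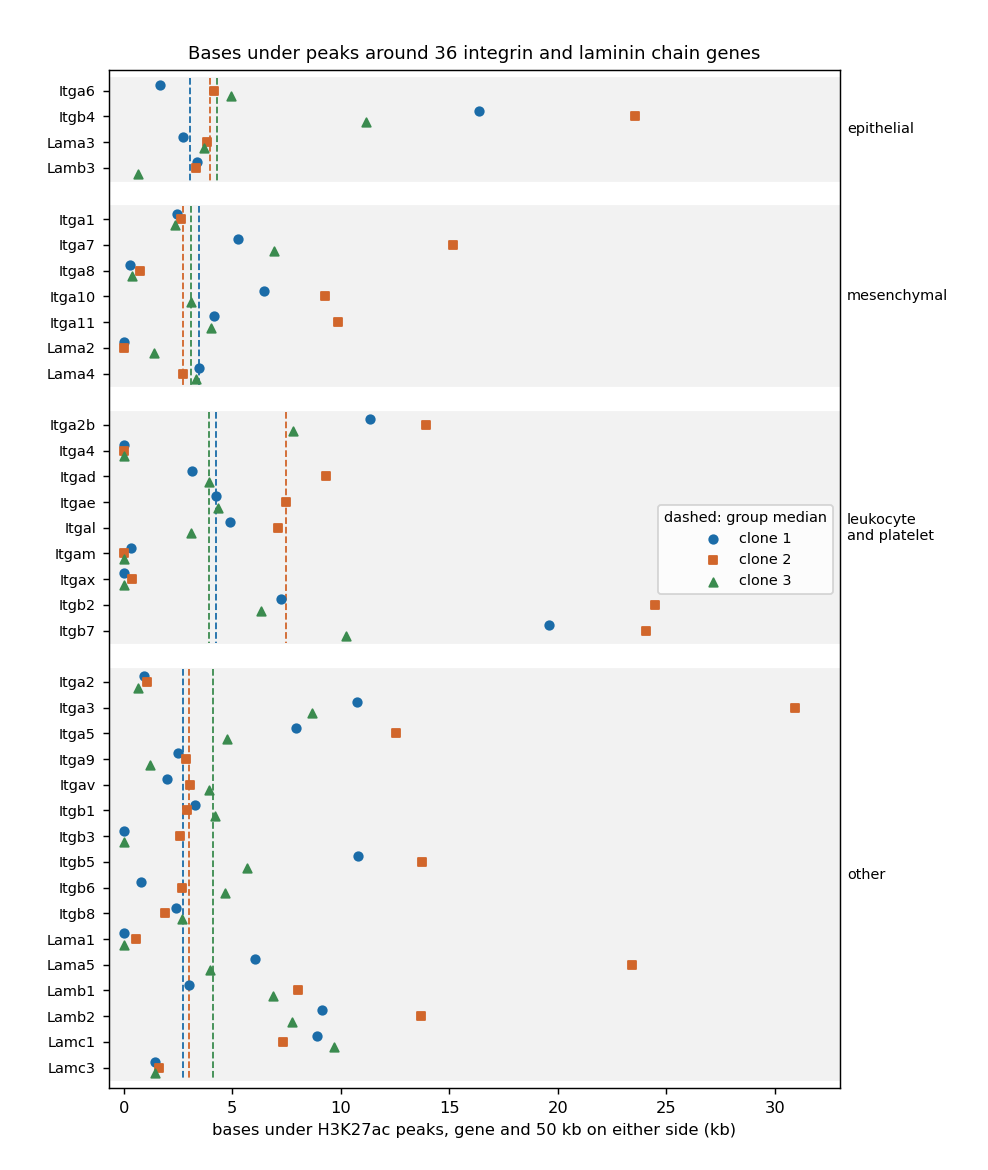
Bases under H3K27ac peaks in each gene and the 50 kb on either side (x, kb) for the 36 genes in 4 groups, with a symbol for each clone and a dashed line at each clone's group median. Itgb4 stands to the right of the other epithelial chains in every clone, and Itga4 lies at 0 in all 3.

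Body peaks were listed at 17, 22 and 17 members in clones 1, 2 and 3, where 15.1%, 27.2% and 16.5% of all protein-coding genes had one. Across all 3 clones 11 members had a body peak, against 10.9% of all genes, and 10 had none, against 68.9%. The greater length of the members was not adjusted for. For Itga1 and Itgae the body peaks lay at starts of genes nested in or beside them, Pelo and Haspin. Without peaks at starts of other genes 9 members kept a body peak in all 3 clones, against 9.88% of all genes counted in the same way: Itga5, Itga10, Itgav, Itgb5, Itgb6, Lama4, Lama5, Lamb1 and Lamc1. No epithelial chain was among them. Away from all protein-coding starts, 26 regions near 12 members were listed in all 3 clones, of 6038 such regions in the genome, and Itga3 with 5 and Itgb4 with 4 had the most. The share of all protein-coding genes with such a region nearby was not counted, so 12 members cannot be called many or few.

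The sequence at the starts was examined because promoters rich in CG dinucleotides are often active in many cell types. RefSeq promoters of 300 bases, 250 before and 50 after a start, were given for 23 of the 36 members (26 promoters) on GRCm38.p6. Itga6, Itgb4, Lama3, Itga7, Lama4, Itgad, Itgae, Itgal, Itgb2, Itgb3, Lama1, Lamc1 and Lamc3 had no entry. The CpG ratio is the number of CG dinucleotides over the number that the C and G content would give. Of all 32851 promoters, 74.2% of those with a ratio of 0.6 or more had a peak within 1 kb in all 3 clones, and 11.1% of those below it. Of the members' promoters 5 of 8 at or above 0.6 were marked in all 3 clones (Itgav, Itgb1, Itgb5, Lama5 and Lamb1), and 5 of 18 below it (Itga1, Itga5, Itgb7, Itgb8 and Lamb2). The 10 marked promoters had ratios of 0.22 to 0.8 with a median of 0.55, and the 13 with no peak in any clone had 0.05 to 0.63 with a median of 0.31.

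The following sequences show this range, 250 bases before a RefSeq start of each gene, 5′ to 3′ along the gene, with every CG in capitals. The Itgb1 (chr8:128685404-128685653, plus strand) and Itgav (chr2:83724147-83724396, plus strand) promoters were marked in all 3 clones and hold 21 and 18 CG. The Itgb6 promoter (chr2:60722604-60722853, minus strand) holds 11 CG and has a ratio of 0.63, but had no peak in any clone. Lamb3 (chr1:193301744-193301993, plus strand) and Itgax (chr7:128129300-128129549, plus strand) had no peak and hold 2 and 5. The RefSeq start of Lamb3 lies 94295 bp inside the outermost GENCODE start of that gene, while those of the other 4 lie within 40 bp of it.
Itgb1: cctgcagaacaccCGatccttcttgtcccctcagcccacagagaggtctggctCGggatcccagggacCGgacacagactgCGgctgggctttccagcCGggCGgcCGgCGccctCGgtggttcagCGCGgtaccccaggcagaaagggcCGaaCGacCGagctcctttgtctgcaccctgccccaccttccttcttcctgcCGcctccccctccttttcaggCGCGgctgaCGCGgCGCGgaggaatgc
Itgav: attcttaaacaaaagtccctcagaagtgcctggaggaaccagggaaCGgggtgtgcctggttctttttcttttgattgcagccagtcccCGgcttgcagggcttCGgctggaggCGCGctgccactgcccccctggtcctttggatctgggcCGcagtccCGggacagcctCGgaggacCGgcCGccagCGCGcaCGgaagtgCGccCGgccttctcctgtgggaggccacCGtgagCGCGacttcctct
Itgb6: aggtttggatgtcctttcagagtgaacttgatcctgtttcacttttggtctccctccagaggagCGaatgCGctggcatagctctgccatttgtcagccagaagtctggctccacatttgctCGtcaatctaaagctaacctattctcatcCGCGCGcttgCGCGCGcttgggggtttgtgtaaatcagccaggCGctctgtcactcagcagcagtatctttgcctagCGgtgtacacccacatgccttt
Lamb3: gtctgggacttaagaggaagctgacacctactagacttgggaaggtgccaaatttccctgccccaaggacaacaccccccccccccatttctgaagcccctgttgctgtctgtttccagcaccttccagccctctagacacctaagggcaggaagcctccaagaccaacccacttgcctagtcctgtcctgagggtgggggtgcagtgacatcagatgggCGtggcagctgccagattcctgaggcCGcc
Itgax: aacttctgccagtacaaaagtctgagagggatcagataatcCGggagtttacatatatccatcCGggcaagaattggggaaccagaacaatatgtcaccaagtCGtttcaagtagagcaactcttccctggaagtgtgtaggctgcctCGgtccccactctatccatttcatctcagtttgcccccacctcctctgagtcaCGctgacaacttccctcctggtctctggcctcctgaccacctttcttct
The CG of Itgb1 and Itgav run through most of the stretch, several of those of Itgb6 lie close together, and Lamb3 and Itgax have only scattered ones. Itga8 had the highest ratio of the members, 0.88, and was marked in clone 2 only. An Itga3 promoter with a ratio of 0.77 was marked in clones 1 and 2 only. Itgb7 had the lowest ratio of the promoters marked in all 3 clones, 0.22. A search on both strands found the GC box GGGCGG, which itself holds a CG, in 12 of the 26 promoters of members and in 35.7% of all promoters. The letters CCAAT occurred in 4 of the 26 and in 37.4% of all promoters.

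**Figure D5:**
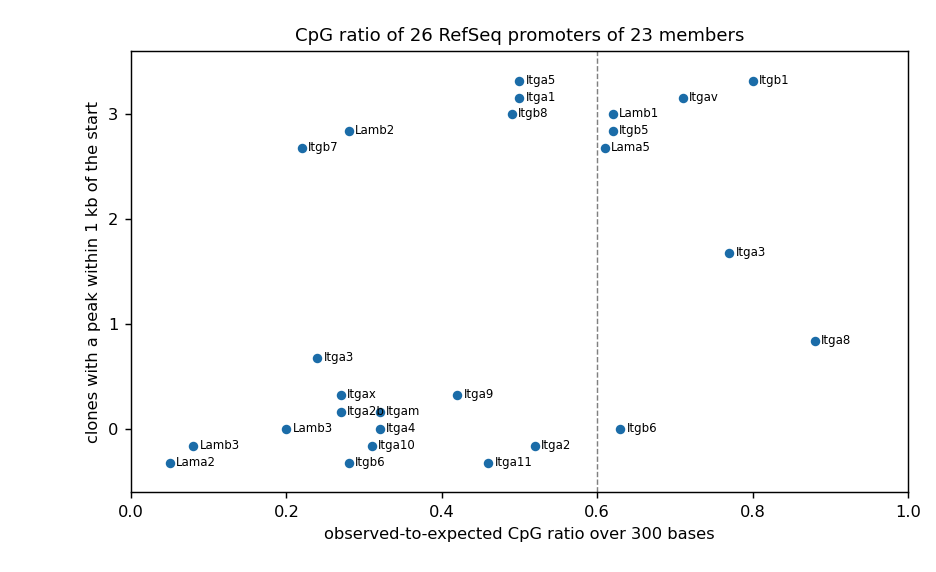
Observed-to-expected CpG ratio over the 300 bases of each RefSeq promoter (x) against the number of clones with a peak within 1 kb of its start (y, spread vertically within each number so that labels can be read), for 26 promoters of 23 genes. The dashed line marks 0.6. Itgb1 and Itgav lie at the upper right, and Lama2 and Lamb3 at the lower left.

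Shared regions away from starts were searched for 2 motifs in the 200 bases at the highest summit, on both strands. The pattern TGANTCA was in 2 of the 26 windows near members and in 8.1% of the 6038 shared windows of the genome. It allows any middle base, and so is looser than the AP-1 site of Fos and Jun factors, TGACTCA or TGAGTCA. The TEAD motif GGAATG was in none of the 26 and in 11.3% of the 6038. H3K27ac sits on nucleosomes beside a factor's site, so these counts say only which letters lie in the window. The windows with TGANTCA were at a region downstream of Itga11 and in an intron of Itga5. The Itga5 region, 8.0 kb inside the gene, had 41, 74 and 67 reads in clones 1, 2 and 3. It is shown because its window holds the pattern at 2 places (chr15:103358714-103358913, plus strand, pattern in capitals).
Itga5: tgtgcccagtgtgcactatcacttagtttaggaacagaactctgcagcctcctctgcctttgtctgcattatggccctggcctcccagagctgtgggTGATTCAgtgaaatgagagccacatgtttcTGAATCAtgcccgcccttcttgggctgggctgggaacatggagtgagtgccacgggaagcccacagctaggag
The matches are TGATTCA and TGAATCA, the same letters read from either strand, and neither is TGACTCA or TGAGTCA.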

How the data were processed

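H3K27ac ChIP-seq was run on 4 libraries of 3 tumour cell clones, with 3 IgG libraries of clones 1 and 3. Per the submitters' processing notes reads were mapped to GRCm38 with Bowtie2 and peaks called with MACS2 2.1.1. The authors deposited 1 peak list per clone, that of clone 3 from its 2 libraries together. The control behind the list of clone 2 is not given in the sources used here, and peak names of clones 1 and 2 carry a tag of an allele-aware filter that those of clone 3 lack. The deposited values are the fold enrichment over control (a ratio) and −log10 p and −log10 q at each summit. Total library sizes are not in the lists.

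Only peaks on the assembled nuclear chromosomes were used, and they were compared with GENCODE M21 in Python 3.11.15 (pandas 2.3.3, scipy 1.17.1). Reads at a summit were solved from fold and p, which gave a whole number within 0.01 reads for at least 99.993% of peaks of each list. Calculations were tested on simulated data. Members and lists were chosen with earlier results of these data known. All 36 members are accounted for, and values in every clone are given for the epithelial chains and for members marked in any clone. Differences between groups were tested over the 3 clones with an exact sign-flip permutation test. No interval or floor is given for a gene without a peak, since the lists hold called peaks only. The alternatives tried are described with the limits.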

Additional observations from a re-analysis of the deposited data

How the results depend on the processing

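With windows and thresholds varied, 11 to 15 members had a promoter peak in all 3 clones, against 14 as reported. Leaving out each clone gave 14 to 16 for promoter peaks, 12 to 15 for body peaks, a median of 3560.5 to 3959.75 bases within 50 kb, an epithelial minus mesenchymal difference of 402 to 1249.25 bases, and an epithelial minus leukocyte and platelet difference of -2336.75 to -403 bases. The count of members with a body peak in all 3 clones was 7 with −log10 q of at least 5, and 19 when such a peak could lie in a promoter window. The median over members was 1461.17 bases with a flank of 10 kb, 6639 with 100 kb, 1062.17 in the gene body alone, 1.93% of the window, 1859.5 without peaks at starts of other genes, and 3019.67 with −log10 q of at least 5.

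Both group differences changed direction with the window. Epithelial minus mesenchymal was 3404.83 bases with a flank of 100 kb, 1392.5 without peaks at starts of other genes and 857.83 with −log10 q of at least 5, above 0 in all 3 clones each time. Epithelial minus mesenchymal was instead -189.83 bases with a flank of 10 kb, -622.17 in the gene body and -550.5 with Itga5 counted as mesenchymal. Epithelial minus leukocyte and platelet was -1.89 as a percent of the window, below 0 in all 3 clones. In bases this difference was instead 777.5 with 10 kb, 40.83 in the gene body and 1744.83 without peaks at starts of other genes. The cause was not tested. No setting reached a p below 0.25, the lowest that 3 clones allow, so the test says nothing about stability. The count of 9 body peaks away from other starts was added after seeing the data. No paired analysis was possible because the lists hold no second condition, the IgG libraries having no list of their own here. The group differences were taken within each clone. A peak list of at least 12, 13 or 25 reads limits what could be seen.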
